A study of Mus musculus with 2 samples.

Results

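Dividing hepatocytes of mouse liver were described here from droplet single-cell RNA profiles: 532 cells, 341 in the DDC and cMet library and 191 in the DDC library, of 4807 cells that passed a hepatocyte gate and 27010 barcodes in all. A cell entered the gate with at least 500 genes, at least 5000 UMIs (unique molecular identifiers, each counting 1 captured mRNA molecule), at most 30% mitochondrial UMIs, at least 100 Alb UMIs per 10000 and under 2 UMIs per 10000 of Ptprc, Stab2, Clec4f and C1qa together. It was called mitotic with at least 5 UMIs, and at least 2 UMIs per 10000, of 9 genes summed: Birc5, Ccnb1, Ccnb2, Cdca3, Cdkn3, Pttg1, Top2a, Mki67 and Nusap1. Each mitotic cell was set beside the non-mitotic cell of the same library and gate (0 or 1 UMI of the 9 genes) that was nearest to it in total UMIs, so each library has as many matched as mitotic cells.

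The series profiled hepatocytes, LPLCs (Sox9-positive cells derived from hepatocytes) and cells of HCC, hepatocellular carcinoma. The DDC and cMet library pooled primary liver cells of Sox9-CreERT2:Rosa26-mTmG mice, taken after 5 months of DDC diet with cMet induced by HTVi (taken here as hydrodynamic tail vein injection), with cells of wild-type (WT) mice on normal diet at day 0. For the DDC library, Sox9-EGFP mice had the DDC diet for 2 weeks, and their cells were again pooled with day 0 cells of WT mice on normal diet. There were 2 mice for each time, of strain C57BL/6J;129S6/SvEvTac. DDC is a diet that injures the bile ducts, and cMet is the receptor for hepatocyte growth factor. Sox9-EGFP marks cells in which Sox9 is transcribed, and the CreERT2 line can mark the descendants of Sox9-positive cells. The barcodes do not tell mice or times apart, so a library counts as 1 mixed sample, library and condition cannot be told apart, and no test between cells was made. Whether a mitotic hepatocyte came from a treated or an untreated mouse cannot be told from these files.

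Adult hepatocytes are mostly quiescent and re-enter the cell cycle after injury or loss of tissue. In the cycle, E2F factors and the loading of MCM helicases on origins precede DNA replication. Later, the MuvB complex with B-Myb and Foxm1 switches on the genes of the G2 phase and mitosis. Many of those genes carry a CHR element and CCAAT boxes near their start. In mitosis, CDK1 with cyclin B condenses the chromosomes, kinetochores bind spindle microtubules, the checkpoint holds the APC/C ubiquitin ligase until all are attached, and cytokinesis parts the daughter cells, a step that hepatocytes often skip, which leaves binucleate and polyploid cells.

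The promoters of 5 cell cycle genes are shown because the cell cycle lists differed in the letters near the start of transcription. Each line gives 150 bases before and 30 bases after the start, 5′ to 3′ along the gene's own strand, from RefSeq on build GRCm38.p6. Capitals mark matches, on either strand, to the CCAAT box, the CHR and the E2F site. Hmmr, Cdc20 and Ckap2l encode mitotic proteins, Cdk1 the mitotic kinase and Mcm6 a subunit of the replicative helicase; Cdk1 was picked after its values were seen.
Hmmr, chr11:40733408-40733587, minus strand: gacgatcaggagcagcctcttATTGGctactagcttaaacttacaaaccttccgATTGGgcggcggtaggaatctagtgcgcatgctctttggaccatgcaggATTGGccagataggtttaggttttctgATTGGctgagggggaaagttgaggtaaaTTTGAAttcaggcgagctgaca
Cdc20, chr4:118437314-118437493, minus strand: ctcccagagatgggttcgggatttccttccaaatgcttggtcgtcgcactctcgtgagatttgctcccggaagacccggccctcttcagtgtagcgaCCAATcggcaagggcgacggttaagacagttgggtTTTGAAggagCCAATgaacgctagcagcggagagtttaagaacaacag
Ckap2l, chr2:129297183-129297362, minus strand: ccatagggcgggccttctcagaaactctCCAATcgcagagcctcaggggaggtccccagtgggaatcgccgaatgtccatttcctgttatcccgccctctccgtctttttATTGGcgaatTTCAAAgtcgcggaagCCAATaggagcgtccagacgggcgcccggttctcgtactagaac
Cdk1, chr10:69352883-69353062, minus strand: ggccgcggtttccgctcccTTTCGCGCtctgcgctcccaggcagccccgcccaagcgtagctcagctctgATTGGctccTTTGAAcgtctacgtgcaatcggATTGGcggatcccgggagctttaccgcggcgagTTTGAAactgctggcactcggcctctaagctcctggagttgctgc
Mcm6, chr1:128359676-128359855, minus strand: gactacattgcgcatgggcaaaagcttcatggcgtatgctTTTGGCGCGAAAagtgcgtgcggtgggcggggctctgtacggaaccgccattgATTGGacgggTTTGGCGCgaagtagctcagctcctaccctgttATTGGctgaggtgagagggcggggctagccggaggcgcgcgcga

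The CHR letters began 18 bases before the start in Cdc20, 30 before and 42 after it in Ckap2l, 15 and 71 before it in Cdk1, and 9 bases after the start in Hmmr. Mcm6 had no CHR letters in its window and had E2F letters beginning 110, 106 and 47 bases before the start, the first pair overlapping. Motifs were searched on both strands of windows of 300 bases, 250 before to 50 after the start. The CHR was searched as TTTGAA and its variant form with the letters TTCGAA. The other box was searched as CCAAT on its own. The E2F site was searched first in the form TTTCCCGC and then in the form TTTGGCGC and also in the form TTTCGCGC and last in the form TTTGCCGC. In all, 19.2% of the 32851 RefSeq mouse promoters held CHR letters, 37.4% CCAAT and 2.26% E2F letters. Of the 76 promoters found for 66 of 75 genes on the checkpoint, kinetochore, spindle and cytokinesis lists, 64.5% held CHR letters, 68.4% CCAAT and 5.26% E2F letters. Of the 49 promoters found for 40 of 50 genes on the origin and replication fork lists, 22.4% held CHR letters, 59.2% CCAAT and 28.6% E2F letters. Of the 188 promoters found for 163 of the 206 genes at least 2-fold higher in both libraries, counted below, 43.1% held CHR letters and 61.2% CCAAT, against 14.0% and 37.9% of 10151 promoters of all measured genes. The printed promoters are examples, and other cell cycle genes varied. Knl1, Aurka, Iqgap3 and Plk1 were among those with CHR letters, but Nuf2, Knstrn, Cenpe, Birc5, Ccnb1, Pttg1 and Nusap1 had none. Mcm5 had E2F letters, and Rrm2 and Tyms had none. Pclaf had E2F letters beginning 5 bases before the start and no CHR letters. A match of letters is a description and shows no binding.

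The label was checked against markers. Each of the 7 marker genes given for these cells is also one of the 9 genes of the rule, so their levels are a description. Birc5, the survivin subunit of the chromosomal passenger complex, had a UMI in 94.1% of mitotic cells of the DDC and cMet library and 95.8% of those of the DDC library. Cdca3 was found in 91.8% and 97.9%, the cyclin gene Ccnb2 in 92.96% and 90.1%, Mki67 in 78.3% and 84.8%, and the securin gene Pttg1 in 76.0% and 95.8%. Ccnb1 was found in 44.0% and 66.5%, Top2a (topoisomerase II alpha) in 23.2% and 41.4%, and Nusap1 in 12.6% and 25.7%. The 9 genes summed to 822 counts per 1000000 UMIs (CPM) in mitotic cells of the DDC and cMet library, against 7.64 CPM in matched cells, and to 1136 CPM in the DDC library, against 8.51 CPM in matched cells. Alb was part of the gate, so its level describes the cells and does not test the hepatocyte label. Mitotic cells had a median of 425 Alb UMIs per 10000 in the DDC and cMet library, against 418 in matched cells, and 275 in the DDC library, against 239. Hnf4a, a master regulator of hepatocyte identity, was at 184 CPM in mitotic and 162 CPM in matched cells of the DDC and cMet library and at 149 CPM and 136 CPM in the DDC library. The cholangiocyte keratin gene Krt19 had 0 UMIs in all 4 groups of cells, but other cholangiocyte markers were present. Their list summed to 10.6 CPM in mitotic and 18.0 CPM in matched cells of the DDC and cMet library. In the DDC library it summed to 21.9 and 29.8 CPM.

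Both libraries held cells near the limits of the rule. With 5 or 6 UMIs of the 9 genes there were 15 members in the DDC and cMet library (median 2.94 per 10000) and 2 in the DDC library (4.21 per 10000). Just outside, 112 gated cells of the DDC and cMet library had 3 or 4 UMIs (median 0.806 per 10000) and 95 had 5 or more but under 2 per 10000 (1.32 per 10000). The DDC library had 56 cells (0.682 per 10000) and 23 cells (1.25 per 10000) of those kinds. Members had a median of 19 UMIs of the 9 genes (5 to 291) in the DDC and cMet library and 44 (5 to 218) in the DDC library.

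The libraries held 186997180 UMIs (DDC and cMet) and 104523363 UMIs (DDC). Mitotic and matched cells had medians of 39538 and 39526 UMIs in the DDC and cMet library and of 49086 and 49057 UMIs in the DDC library. The largest depth ratio within a pair was 1.22 and 1.13 in those libraries. Mitochondrial UMIs made up a median of 8.90% in mitotic and 10.98% in matched cells of the DDC and cMet library, against 6.84% and 6.98% in the DDC library. The libraries shared 50 barcodes, of which 1 was a mitotic and 1 a matched cell of the DDC and cMet library and none was either in the DDC library.

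Mitotic cells made up 10.2% of gated hepatocytes in the DDC and cMet library (95% Clopper-Pearson interval 9.18 to 11.3) and 13.1% in the DDC library (11.4 to 14.95). All intervals here cover counting error only, not differences between mice. The share moved with depth. In the shallowest of 5 depth classes, 5000 to 10000 UMIs, it was 8.64% in the DDC and cMet library and 2.97% in the DDC library, and in the deepest it was 11.1% and 20.2%. After thinning every cell to 5000 UMIs, 9.16% of gated cells of the DDC and cMet library and 12.8% of those of the DDC library had at least 2 UMIs of the 9 genes. Immune and endothelial cells of the same libraries (at least 20 UMIs per 10000 of the 4 gate genes, Alb under 100 per 10000), which can themselves divide, had such counts in 7.11% and 7.58%, with median depths of 13969 and 20814 UMIs before thinning. At 1 UMI the shares of gated and of those other cells were 18.1% and 18.1% in the DDC and cMet library. At 5 UMIs they were 3.82% (3.20 to 4.53) and 4.46% (3.41 to 5.72), so neither count set hepatocytes apart there. In the DDC library the shares at 5 UMIs were 7.34% (6.06 to 8.81) and 4.65% (2.82 to 7.16). A stricter rule of at least 10 UMIs and 4 per 10000 gave 6.45% and 11.1%.

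Genes were compared where mitotic and matched cells together had at least 50 UMIs. A gene seen in mitotic cells only passes that minimum too, so the counts below describe the genes that passed and support nothing beyond them. In the DDC and cMet library 355 of 10372 genes outside the 9 were at least 2-fold higher in mitotic cells (3.42%) and 187 at least 2-fold lower (1.8%). The DDC library had 349 of 10224 genes higher (3.41%) and 221 lower (2.16%). Of 9896 genes measured in both libraries, 206 were at least 2-fold higher in both (2.08%) and 53 at least 2-fold lower in both (0.536%). The median log2 ratio of all genes was 0.10 in the DDC and cMet library and 0.04 in the DDC library, and list medians below are read against those. Of the 206 genes, 87 stood on 1 of 12 cell cycle lists, which held 168 genes measured in both libraries, and 119 on none of them. After thinning every cell to 5000 UMIs, fewer genes had 50 UMIs, and 58 were at least 2-fold higher and 13 lower in both libraries; without depth matching, 125 were lower in both.

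**Figure D1:**
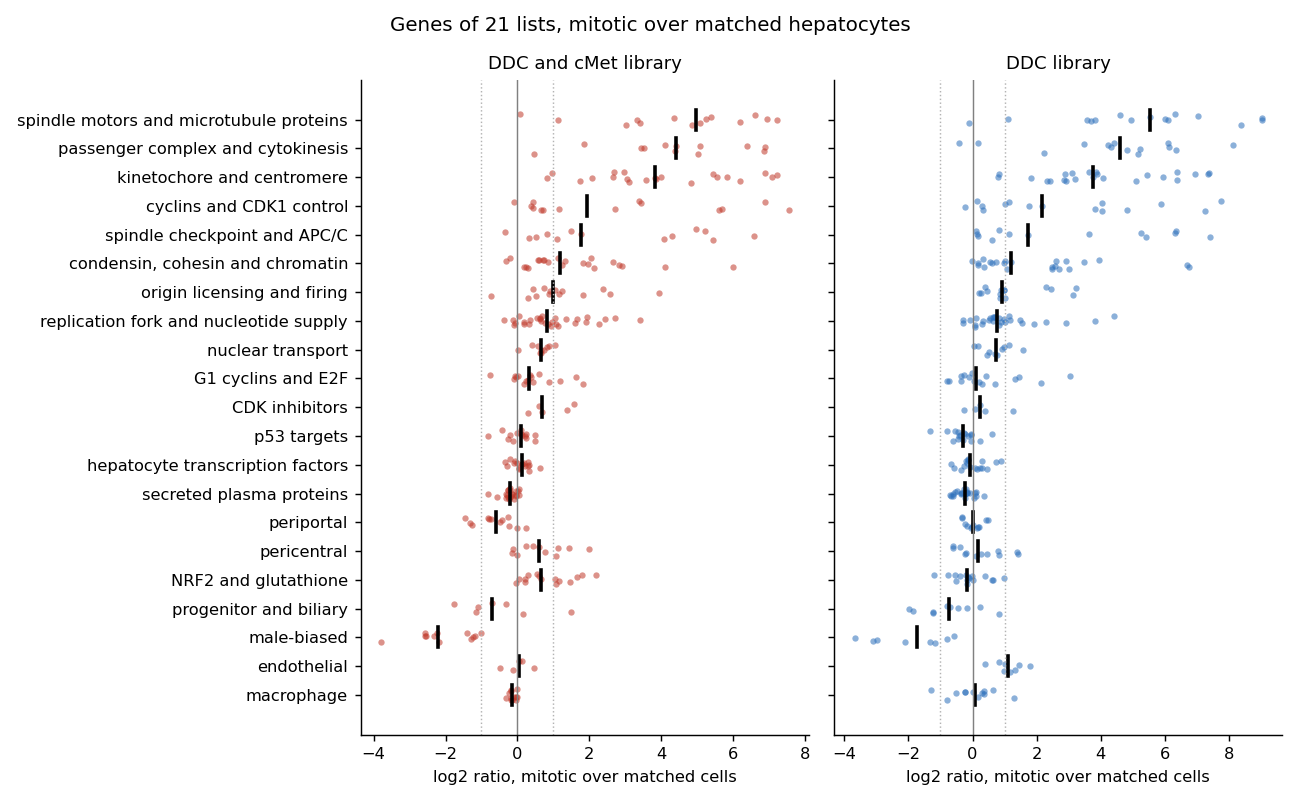
Log2 ratio of summed CPM, mitotic over matched cells, for every measured gene (points) of 21 lists in the DDC and cMet library and in the DDC library, with each list's median as a bar. Spindle, cytokinesis and kinetochore genes lie farthest to the right, with medians between 3.76 and 5.52, and male-biased genes farthest to the left, with medians of -2.21 and -1.72.

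Genes of the spindle and of cytokinesis stood highest. Among motors and microtubule proteins, 13 of 14 genes in the DDC and cMet library and 14 of 15 in the DDC library were at least 2-fold higher, with median log2 ratios of 4.96 and 5.52. Hmmr, whose product binds spindle poles and hyaluronan (build GRCm38.p6, chromosome 11, 40701395 to 40733422), had 592 UMIs in 149 mitotic cells of the DDC and cMet library, against 4 UMIs in 4 matched cells (45.1 and 0.306 CPM), and 529 UMIs in 118 mitotic cells of the DDC library, against 1 UMI in 1 matched cell (57.3 and 0.109 CPM). Its log2 ratio was 7.21 (5.84 to 9.09) in the DDC and cMet library and 9.04 (6.55 to 14.34) in the DDC library. Aurka, the spindle pole kinase, had 145 and 2 UMIs in mitotic and matched cells of the DDC and cMet library (log2 ratio 6.18, 4.30 to 9.24) and 161 and 2 UMIs in the DDC library (6.32, 4.44 to 9.38). Ckap2l had 248 and 2 UMIs in the DDC and cMet library and 336 and 1 in the DDC library. The chromokinesin gene Kif4 had 97 and 1 UMIs in the DDC and cMet library (6.60, 4.08 to 11.91), and 139 and 0 in the DDC library, at least 46.0-fold higher against a floor of 3 UMIs over the matched cells. Matched cells thus held these genes in 4 cells or fewer.

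The passenger complex and cytokinesis list had 11 of 12 genes at least 2-fold higher in the DDC and cMet library and 12 of 14 in the DDC library (median log2 ratios 4.40 and 4.61). Kif20a, a kinesin of the midzone needed for cytokinesis, was at 38.3 CPM in mitotic and 0.458 CPM in matched cells of the DDC and cMet library and at 61.4 CPM and 0.218 CPM in the DDC library. Prc1, which bundles midzone microtubules, was at 19.7 and 0.611 CPM (log2 ratio 5.01, 4.01 to 6.24) and at 34.9 and 0.982 CPM (5.15, 4.21 to 6.29). Racgap1, of the centralspindlin complex, was at 20.5 and 0.611 CPM and at 44.7 and 0.655 CPM. Iqgap3 had 117 and 1 UMIs in the DDC and cMet library, and 244 and 0 in the DDC library, at least 80.8-fold higher. Genes of the machinery that completes division were thus detected in these hepatocytes; transcript levels do not show whether division was completed.

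Kinetochore genes were at least 2-fold higher in 19 of 21 cases in the DDC and cMet library and 21 of 23 in the DDC library, with medians of 3.83 and 3.76. Cenpe, the kinetochore motor, was at 22.8 CPM in mitotic and 0.153 CPM in matched cells of the DDC and cMet library (log2 ratio 7.22, 5.35 to 10.27) and at 27.1 CPM and 0.327 CPM in the DDC library (6.37, 4.81 to 8.66). Nuf2, a subunit of the Ndc80 complex that grips microtubules, had 135 and 1 UMIs in the DDC and cMet library and 166 and 1 in the DDC library. Knl1, the checkpoint scaffold of the outer kinetochore, had 146 and 2 UMIs and 165 and 1. Sgo1, which shields centromeric cohesin, had 93 and 2 UMIs and 123 and 1. Lockd, a long noncoding RNA gene next to Cdkn1b and outside the lists, had 975 UMIs in 271 mitotic and 2 UMIs in 2 matched cells of the DDC and cMet library (8.93, 7.07 to 11.97) and 360 UMIs in 147 and 3 UMIs in 2 cells of the DDC library (6.90, 5.34 to 9.18). Knstrn, a kinetochore and spindle adaptor outside the lists, was at 56.2 and 0.611 CPM in the DDC and cMet library (6.52, 5.54 to 7.74) and at 52.2 and 0.764 CPM in the DDC library (6.10, 5.04 to 7.42).

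The checkpoint and APC/C list mixed genes that were far higher with genes near 0, and 9 of 13 genes were at least 2-fold higher in the DDC and cMet library and 8 of 13 in the DDC library (medians 1.77 and 1.72). Cdc20, the mitotic activator of the APC/C, was at 36.3 CPM in mitotic and 0.382 CPM in matched cells of the DDC and cMet library (log2 ratio 6.57, 5.34 to 8.20) and at 74.3 CPM and 0.437 CPM in the DDC library (7.41, 6.05 to 9.29). Ube2c, the E2 enzyme that works with the APC/C, was at 46.4 and 1.07 CPM and at 86.5 and 1.09 CPM. The checkpoint kinase genes Bub1 and Ttk had 0 UMIs in matched cells of both libraries. Bub1 had 93 UMIs in mitotic cells of the DDC and cMet library and 129 in those of the DDC library, at least 30.9-fold and at least 42.7-fold higher, and Ttk had 111 and 116, at least 36.9-fold and at least 38.4-fold higher. Each gene was found in part of the mitotic cells: thinned to 5000 UMIs, Cdc20 was found in 12.6% of mitotic cells of the DDC and cMet library, against 0 of 341 matched cells (95% Clopper-Pearson upper bound 1.08%) and 1.59% of immune and endothelial cells.

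Among cyclins and CDK1 control, 8 of 14 genes were at least 2-fold higher in the DDC and cMet library and 11 of 15 in the DDC library (medians 1.94 and 2.18). Ccna2, cyclin A, had 357 UMIs in 138 mitotic cells and 0 UMIs in matched cells of the DDC and cMet library, at least 119-fold higher, and 466 UMIs in 113 mitotic cells against 3 UMIs in 3 matched cells of the DDC library (log2 ratio 7.27, 5.71 to 9.55). Plk1, the polo-like kinase of mitotic entry, had 186 and 1 UMIs (7.54, 5.04 to 12.85) and 217 and 1 UMIs (7.75, 5.26 to 13.06). Cdc25c, the phosphatase that activates CDK1, had 155 and 0 UMIs in the DDC and cMet library, at least 51.5-fold higher, and 118 and 2 UMIs in the DDC library. Foxm1, the transcription factor of the G2 and mitosis program, was at 11.1 and 0.229 CPM (5.60, 4.03 to 7.90) and at 12.2 and 0.437 CPM (4.81, 3.41 to 6.71). Cdk1, with its promoter printed above, was at 21.2 CPM in mitotic and 3.21 CPM in matched cells of the DDC and cMet library (2.72, 2.25 to 3.23) and at 34.1 and 2.07 CPM in the DDC library (4.04, 3.37 to 4.79). Cdk1 UMIs in matched cells were thus more frequent than those of Ccna2, Plk1 and Cdc25c.

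**Figure D2:**
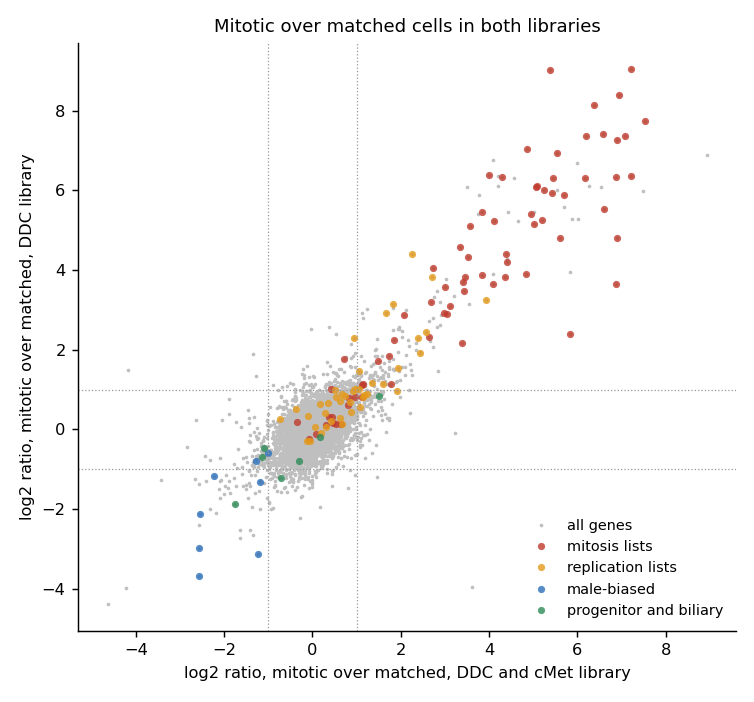
Log2 ratio of mitotic over matched cells of each of 9896 genes outside the rule in the DDC and cMet library (horizontal) and in the DDC library (vertical), with the mitosis, replication, male-biased and progenitor lists in colour and dotted lines at 2-fold. Mitosis genes run up to log2 ratios near 9 in the upper right, and few genes lie in the corners of opposite sign, where 2 (0.0202%) and 3 genes (0.0303%) passed 2-fold in both libraries.

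Genes of DNA replication were higher by less. On the origin list, 7 of 14 genes in the DDC and cMet library and 5 of 14 in the DDC library were at least 2-fold higher (medians 0.98 and 0.92), but its median in the DDC and cMet library was -0.22 after thinning to 5000 UMIs, over the 3 genes still measured. On the fork and nucleotide list, 12 of 30 and 10 of 28 were (0.81 and 0.76). Gins2, a subunit of the CMG helicase, was at 19.8 CPM in mitotic and 1.30 CPM in matched cells of the DDC and cMet library (log2 ratio 3.93, 3.22 to 4.73) and at 17.6 and 1.86 CPM in the DDC library (3.24, 2.52 to 4.06). Mcm6 was at 9.52 and 1.604 CPM (2.57, 1.90 to 3.31) and at 11.4 and 2.07 CPM (2.46, 1.74 to 3.24). Dbf4, the activator of the origin-firing kinase, gave log2 ratios of 2.39 (1.94 to 2.87) and 2.28 (1.91 to 2.68). Rrm2, the S-phase subunit of ribonucleotide reductase, was at 20.9 and 3.21 CPM in the DDC and cMet library and at 27.7 and 1.96 CPM in the DDC library. Tyms, thymidylate synthase, was at 47.8 and 8.86 CPM and at 43.1 and 11.4 CPM. Pclaf, the PCNA-associated factor, outside the lists, stood with the mitotic genes: 536 and 7 UMIs in the DDC and cMet library (6.25, 5.20 to 7.58) and 209 and 3 in the DDC library (6.11, 4.55 to 8.40). Pcna itself, chosen after its values were seen, was at 38.6 and 26.6 CPM (0.54) and at 41.0 and 23.2 CPM (0.82), under 2-fold in both libraries.

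Chromatin genes fell between these groups. Condensin, cohesin and chromatin genes were at least 2-fold higher in 12 of 22 cases in the DDC and cMet library and 14 of 23 in the DDC library (medians 1.17 and 1.19). Esco2, the S-phase cohesin acetyltransferase, had 192 UMIs in mitotic and 3 in matched cells of the DDC and cMet library (log2 ratio 6.00, 4.43 to 8.29) and 310 and 3 in the DDC library (6.68, 5.12 to 8.97). Ncapd2, a condensin subunit, gave 2.83 (2.04 to 3.72) and 3.47 (2.62 to 4.46), and the chromatin protein gene Hmgb2 gave 2.64 (2.36 to 2.93) and 2.71 (2.40 to 3.04). H2afz, which encodes the histone variant H2A.Z and was chosen after its values were seen, was at 1179 CPM in mitotic and 159 CPM in matched cells of the DDC and cMet library and at 1716 and 280 CPM in the DDC library. Replication-dependent histone mRNAs mostly lack a poly(A) tail, and a 3′ poly(A) protocol captures them poorly: 5 of 10 measured core and linker histone genes were at least 2-fold higher in the DDC and cMet library, against 0 of 3 in the DDC library. Of the DNA repair and checkpoint list, 4 of 10 measured genes were at least 2-fold higher and 0 lower in the DDC and cMet library (median 0.78). For the DDC library 2 of 8 were higher and 1 lower (median 0.36). The lower one, Rad51b, gave negative log2 ratios of -0.88 (-1.11 to -0.65) and -1.08 (-1.20 to -0.97).

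The G1 genes differed less. Of 16 measured G1 cyclin and E2F genes, 3 were at least 2-fold higher in the DDC and cMet library and 4 in the DDC library, with medians of 0.32 and 0.12. Ccnd1, cyclin D1, was at 291 CPM in mitotic and 255 CPM in matched cells of the DDC and cMet library (log2 ratio 0.19) and at 162 and 159 CPM in the DDC library (0.03). E2f1 was at 8.53 and 2.75 CPM (1.63, 1.08 to 2.22) and at 7.15 and 2.62 CPM (1.45, 0.76 to 2.19). E2f8, an atypical E2F linked to hepatocyte polyploidy in mice, had 50 and 14 UMIs (1.83, 0.95 to 2.80) and 50 and 6 (3.05, 1.83 to 4.56), and E2f7 had 4 and 0 UMIs in both libraries. Ccne2, cyclin E2, gave 0.87 (0.22 to 1.56) and 2.15 (1.18 to 3.24), and Cdk6 gave -0.77 and -0.72. The CDK inhibitor gene Cdkn2d was at 7.16 and 2.75 CPM (1.38, 0.81 to 1.98) and at 8.13 and 3.38 CPM (1.26, 0.64 to 1.92). Cdkn1a, which encodes the p53-induced inhibitor p21, was at 40.5 CPM in mitotic and 26.7 CPM in matched cells of the DDC and cMet library (0.60, 0.40 to 0.80; 1.18 without the 5 richest cells of each group) and at 189 CPM in mitotic and 225 CPM in matched cells of the DDC library (-0.25, -0.35 to -0.16). On the p53 target list 0 of 14 genes were at least 2-fold higher or lower in the DDC and cMet library, and of 17 in the DDC library 0 were higher and 1 lower.

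Genes of ribosome biogenesis and nucleotide synthesis differed little. None of 20 ribosome biogenesis and none of 19 purine and pyrimidine synthesis genes passed 2-fold in either library. Such counts are near the shares of all genes (3.42% higher and 1.8% lower, and 3.41% and 2.16%). The list medians were 0.24 and 0.07, and -0.02 and 0.14. Of the tubulin and actin cytoskeleton list, 5 of 18 measured genes were at least 2-fold higher and 2 lower in the DDC and cMet library (median 0.64). For the DDC library 4 of 21 were higher and 3 lower (median 0.06). Tubb6, Tubb4b and Tuba1b were higher in both libraries and S100a6 was lower in both. Tmsb10 was lower in the DDC and cMet library and Tuba1a and Tubb2b in the DDC library. Tubb4b was at 251 CPM in mitotic and 52.8 CPM in matched cells of the DDC and cMet library and at 380 and 147 CPM in the DDC library. Ran, the GTPase of nuclear transport and spindle assembly, was at 295 and 143 CPM (log2 ratio 1.05) and at 570 and 261 CPM (1.13). Stmn1, a microtubule-destabilising protein gene chosen after its values were seen, was at 288 and 14.0 CPM (4.36, 4.15 to 4.59) and at 354 and 25.1 CPM (3.82, 3.63 to 4.02). At 5000 UMIs a cell, Stmn1 was found in 64.8% of mitotic, 7.04% of matched and 10.8% of immune and endothelial cells of the DDC and cMet library, and in 79.1%, 9.42% and 12.5% of those of the DDC library. Ldha, lactate dehydrogenase A, was the glycolysis gene past 2-fold: 954 and 379 CPM in the DDC and cMet library and 1256 and 501 CPM in the DDC library, a log2 ratio of 1.33 (1.28 to 1.38) in each. It was present in all 341 and all 191 mitotic cells and in 339 and 191 matched cells.

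**Figure D3:**
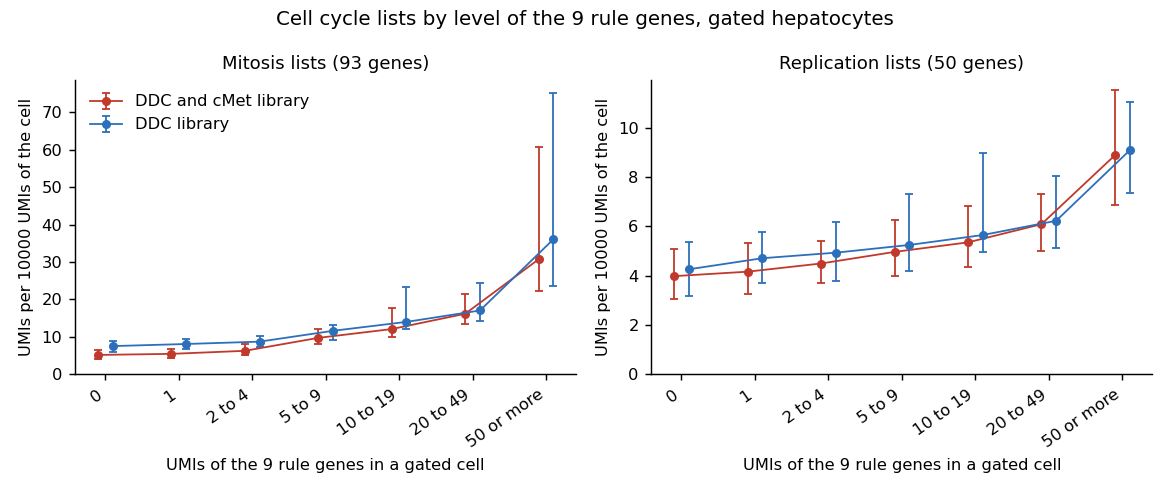
Median UMIs per 10000 (points) with quartiles (bars) of 93 genes on the mitosis lists (left) and 50 genes on the replication lists (right), in gated hepatocytes grouped by their UMIs of the 9 rule genes, for both libraries. The mitosis lists run from 5.18 at 0 UMIs to 30.8 at 50 or more in the DDC and cMet library and from 7.54 to 36.1 in the DDC library, while the replication lists stay between 3.98 and 6.23 up to 49 UMIs in both.

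The plot of list sums by rule gene level shows that the mitosis lists, which hold none of the 9 genes, followed the rule genes through their whole range. In the DDC and cMet library the median of 93 genes was 5.18, 5.46, 6.27, 9.74, 12.1, 16.2 and 30.8 UMIs per 10000 in cells with 0, 1, 2 to 4, 5 to 9, 10 to 19, 20 to 49 and 50 or more UMIs of the 9 genes. The DDC library gave 7.54, 8.10, 8.73, 11.6, 14.0, 17.1 and 36.1. The replication lists gave 3.98, 4.16, 4.50, 4.97, 5.35, 6.09 and 8.89 in the DDC and cMet library and 4.26, 4.71, 4.94, 5.25, 5.65, 6.23 and 9.09 in the DDC library. The highest bin held 64 and 85 cells. Because a cell with more UMIs has more of every gene, these sums are per 10000 UMIs of the cell; median depth was 30085 UMIs in the lowest and 51448 in the highest bin of the DDC and cMet library, and 34934 and 52836 in the DDC library.

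**Figure D4:**
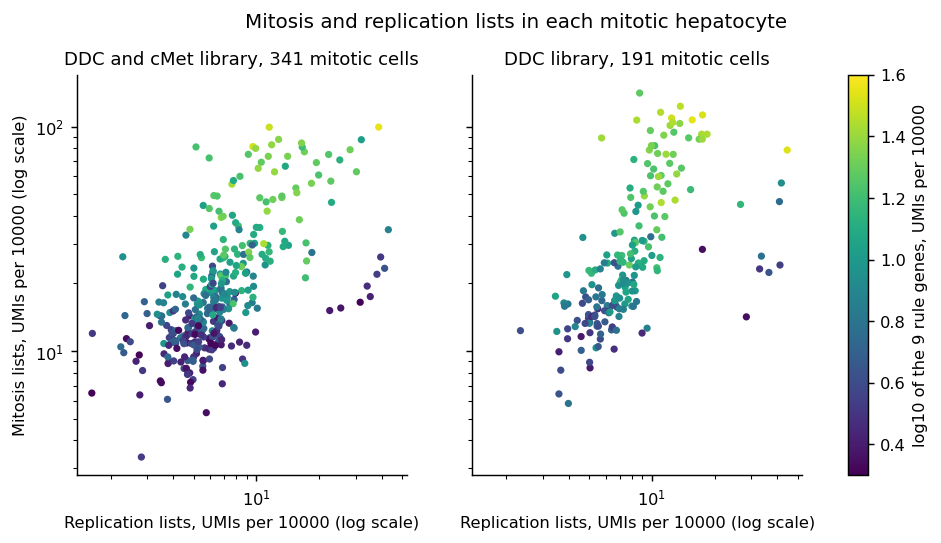
Each of the 341 and 191 mitotic hepatocytes by its UMIs per 10000 of the replication lists (horizontal, log scale) and of the mitosis lists (vertical, log scale), coloured by the log10 of the UMIs per 10000 of the 9 rule genes. Most cells form an elongated cloud with the cells high in rule genes at its top. The 17 and 9 cells with at least 20 UMIs per 10000 of the replication lists lie farthest to the right.

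Members differed widely among themselves. The mitosis lists ran from 3.37 to 99.5 UMIs per 10000 in the DDC and cMet library (median 16.2, quartiles 11.8 and 26.1) and from 5.84 to 141 in the DDC library (median 23.0, quartiles 15.8 and 44.8). The replication lists ran from 1.62 to 43.0 (median 6.24) and from 2.34 to 44.6 (median 7.50). Across the cells of a library, which share that library and differ in depth, Spearman's rho between the mitosis and replication lists was 0.66 over 341 cells in the DDC and cMet library and 0.76 over 191 cells in the DDC library, and that between the mitosis lists and total UMIs was -0.18 and -0.14. By UMIs of 5 late genes (Cdc20, Plk1, Aurka, Cenpe, Kif20a) and 5 replication genes (Pclaf, Rrm2, Mcm5, Cdc6, Uhrf1), 53.7% of mitotic cells in the DDC and cMet library and 65.4% in the DDC library had both kinds. Late genes alone were found in 17.3% and 14.7%, replication genes alone in 14.4% and 11.5%, and neither in 14.7% and 8.38%. Median depths were 28394 UMIs for late genes alone and 43144 for replication genes alone in the DDC and cMet library. In the DDC library they were 37736 and 53262. Pclaf stood with the mitotic genes above, and Rrm2 had a UMI in 10.9% and 8.38% of matched cells, so these classes are not phases of the cycle. The name mitotic thus covers cells with transcripts of late genes, of replication genes or of both, which the 9 genes do not part.

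A few members were highest in replication genes. They had at least 20 UMIs per 10000 of the replication lists, a limit chosen after the values were seen. There were 17 in the DDC and cMet library (22.2 to 43.0 UMIs per 10000) and 9 in the DDC library (26.6 to 44.6). The other mitotic cells, under the limit by its definition, reached 19.9 and 18.4. The 17 and 9 cells were thus cut out by that limit and not shown to be a separate group. Having passed the same gate, these cells had medians of 471 and 262 Alb UMIs per 10000, against 425 and 275 in the other mitotic cells, at median depths of 40057 and 43519 UMIs, against 39530 and 49104. By the genes that set the limit, they held 84 of the 125 Mcm6 UMIs of mitotic cells in the DDC and cMet library and 73 of 105 in the DDC library, and 211 of 507 and 110 of 378 Pcna UMIs. The other mitotic cells still had 16.8 CPM of Gins2 and 14.5 CPM of Rrm2 in the DDC and cMet library, and 15.6 and 22.1 CPM in the DDC library. Those levels were above those of the matched cells given earlier. Outside the replication lists, Cdk1 was at 124 CPM in these cells and 15.6 CPM in the other mitotic cells of the DDC and cMet library and at 121 and 30.5 CPM in the DDC library. Ccne2, the S-phase cyclin, was at 23.6 and 3.29 CPM and at 78.3 and 2.26 CPM. Cdc20 was at 51.6 and 35.4 CPM and at 13.5 and 76.8 CPM, where the 13.5 CPM was 5 UMIs in 3 cells. Plk1 was at 29.5 and 13.3 CPM and at 24.3 and 23.5 CPM. Kif20a was at 28.0 and 38.9 CPM and at 40.5 and 62.2 CPM. The mitosis lists had medians of 34.7 and 15.7 UMIs per 10000 in the DDC and cMet library and of 26.5 and 22.5 in the DDC library. Late genes thus did not all differ in 1 direction. Macrophage markers had medians of 2.59 and 1.81 UMIs per 10000 in these and in the other mitotic cells of the DDC and cMet library. In the DDC library the medians were 1.46 and 1.37, and 1 of these cells reached 42.6. Cd74 was at 57.5 and 44.2 CPM in the DDC and cMet library and at 456 and 79.5 CPM in the DDC library. Ptprc was at 2.95 and 1.45 CPM and at 16.2 and 1.24 CPM, where the 16.2 CPM was 6 UMIs in 2 cells. The progenitor and biliary list had medians of 1.92 and 2.17 UMIs per 10000 and of 15.5 and 3.83. Doublets of a dividing cell with a resting or an immune cell were not tested for.

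Transcription factors and secreted proteins of hepatocytes stayed within 2-fold. None of 17 hepatocyte transcription factors and none of 22 secreted plasma proteins passed 2-fold in either library. Plasma protein medians were -0.22 and -0.24: Hp, haptoglobin, was at 4692 CPM in mitotic and 5604 CPM in matched cells of the DDC and cMet library and at 6128 and 9925 CPM in the DDC library, and Apoa1 at 13213 and 15943 CPM and at 9243 and 13463 CPM. Met, the gene of the cMet receptor, was at 39.7 CPM in mitotic and 38.0 CPM in matched cells of the DDC and cMet library and at 34.1 and 34.4 CPM in the DDC library; RNA of the endogenous gene and of the induced cMet was not told apart. None of 14 fatty acid oxidation and none of 14 cholesterol synthesis genes passed 2-fold in either library. Of all genes, 3.42% were at least 2-fold higher and 1.8% lower in the DDC and cMet library. In the DDC library the shares were 3.41% and 2.16%. A count of 0 in lists this short is near those shares and does not set these genes apart.

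Bile acid and lipid genes held a few exceptions. Cyp7b1, an oxysterol hydroxylase of bile acid synthesis, was at 22.5 CPM in 143 mitotic and 105 CPM in 197 matched cells of the DDC and cMet library (log2 ratio -2.23, -2.41 to -2.04), and at 11.8 CPM in 66 and 26.7 CPM in 94 cells of the DDC library (-1.18, -1.52 to -0.85). Slco1a1, an organic anion transporter, was at 41.5 and 98.3 CPM (-1.24) and at 0.867 and 7.53 CPM (-3.12), but in the DDC library 5 matched cells held 84.1% of its matched UMIs. Thrsp, a lipogenic regulator, was at 290 and 858 CPM in the DDC and cMet library (-1.57, -1.62 to -1.51) and at 37.9 and 62.4 CPM in the DDC library (-0.72, -0.91 to -0.52). Egfr, the EGF receptor gene, was at 65.7 and 140 CPM (-1.09) and at 30.9 and 47.7 CPM (-0.63), and Fgf21, a stress-induced hormone gene, at 3.89 and 8.86 CPM (-1.19) and at 11.6 and 28.7 CPM (-1.31).

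Male-biased liver genes were lower in mitotic cells. All 12 measured genes of that list in the DDC and cMet library and 6 of 8 in the DDC library were at least 2-fold lower, with medians of -2.21 and -1.72, and 6 of 8 measured in both were lower in both. The median cell had 16.6 UMIs per 10000 of these genes among mitotic and 33.7 among matched cells of the DDC and cMet library, and 15.7 and 30.2 in the DDC library. Elovl3, a fatty acid elongase gene, had 9 UMIs in 8 mitotic and 53 UMIs in 29 matched cells of the DDC and cMet library, and 8 UMIs in 8 and 63 in 10 cells of the DDC library. Mup1, which encodes a major urinary protein, was at 18.4 CPM in 82 mitotic and 109 CPM in 143 matched cells of the DDC and cMet library (-2.57, -2.77 to -2.37) and at 1.63 CPM in 5 and 20.8 CPM in 21 cells of the DDC library (-3.68, -4.55 to -2.92). Mup17, outside the list, had 66 and 1625 UMIs in the DDC and cMet library and 154 and 3199 in the DDC library. The Mup genes are near-identical copies whose reads the counting could split, so values of single copies are uncertain. Lower sums were not limited to male-biased genes. A list of 10 female-biased genes summed to 264 CPM in mitotic and 386 CPM in matched cells of the DDC and cMet library. In the DDC library its sums were 231 and 391 CPM. Only 2 and 1 of those genes were measured, with medians of -0.77 and -0.76.

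In the DDC library the low Mup values rested on few matched cells. Leaving out the 5 richest cells of each group left -3.00 for Mup17, -2.32 for Mup9, -3.17 for Mup1 and -2.57 for Mup21 in the DDC and cMet library. Of the DDC library, the 5 matched cells richest in Mup17 held 94.998% of its matched UMIs, and after the same step the log2 ratio was -0.58, against -4.39 with them. For Mup9 it was 0.06 without and -4.00 with them, for Mup21 0.21 and -1.50 (0.10 without the deepest 5% of gated cells), and for Mup16 0.11 and -1.99. The 4 Y chromosome genes had medians of 0.06 and 0.09, and Xist had 2 UMIs in mitotic and 1 UMI in matched cells of the DDC and cMet library and 2 and 0 in the DDC library, so both groups of cells held RNA of male mice in each library.

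Other genes among the 15 lowest in both libraries were not of the male-biased list. Serpina12, vaspin, was at 14.6 CPM in 97 mitotic and 52.9 CPM in 181 matched cells of the DDC and cMet library (log2 ratio -1.86, -2.10 to -1.63) and at 6.94 CPM in 40 and 20.95 CPM in 81 cells of the DDC library (-1.59, -2.03 to -1.18). Miga1, a mitochondrial fusion factor gene, had 17 and 53 UMIs in 15 and 47 cells (-1.64, -2.53 to -0.83) and 11 and 63 UMIs in 10 and 52 cells (-2.53, -3.60 to -1.59). Guca2b, the uroguanylin gene, had 23 and 137 UMIs in the DDC and cMet library, where 5 matched cells held 89.1% of the matched UMIs, and 177 and 923 in the DDC library. For Serpina12 and Miga1 the 5 richest matched cells held between 17.6% and 21.9% of the matched UMIs, so those values did not rest on a handful of cells.

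Several genes of the progenitor state had lower summed levels too. Of the progenitor and biliary list, 3 of 7 measured genes in the DDC and cMet library and 4 of 10 in the DDC library were at least 2-fold lower (medians -0.72 and -0.75), and Prom1, a stem cell membrane protein gene, was at least 2-fold higher in the DDC and cMet library. The list summed to 532 CPM in mitotic and 779 CPM in matched cells of the DDC and cMet library. The median cell there went the other way, with 2.17 UMIs per 10000 among mitotic and 1.62 among matched cells. The highest cells had 144 and 238. In the DDC library the medians were 3.89 and 6.35, lower in mitotic cells like the sums (1744 and 3900 CPM). Sox4, a transcription factor of progenitor cells, was at 8.30 CPM in 46 mitotic and 28.1 CPM in 64 matched cells of the DDC and cMet library (log2 ratio -1.76, -2.08 to -1.45) and at 22.4 CPM in 48 and 81.9 CPM in 88 cells of the DDC library (-1.87, -2.10 to -1.64). Spp1, osteopontin, was at 348 and 573 CPM (-0.72, -0.77 to -0.67) and at 1496 and 3503 CPM (-1.23, -1.26 to -1.20). A UMI of Spp1 was found in 71.8% of mitotic and 67.7% of matched cells of the DDC and cMet library. In the DDC library those shares were 97.4% and 99.5%. Ier3, an early response gene, was at 5.10 and 11.6 CPM (-1.19) and at 25.1 and 101 CPM (-2.004). The Sox9-EGFP reporter of the DDC library had 274 UMIs in 65 mitotic and 657 UMIs in 100 matched cells (29.7 and 71.7 CPM; -1.27, -1.48 to -1.07). In the other library tdTomato, the colour of unrecombined mTmG cells, had 2 UMIs in all barcodes and 0 in mitotic cells, so lineage was not read from it. Hepatocytes of untreated mice may be among the mitotic and the matched cells, and a shift in that mixture cannot be told apart from a shift within cells.

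**Figure D5:**
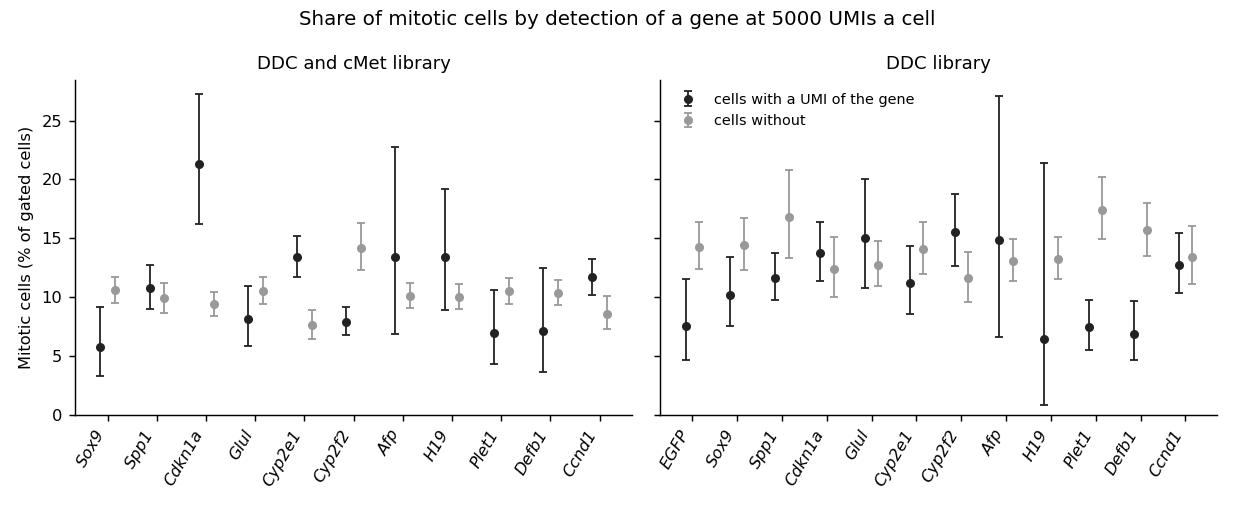
Share of gated hepatocytes that are mitotic, among cells with (dark) and without (grey) a UMI of each of the state genes after thinning to 5000 UMIs, with 95% Clopper-Pearson intervals, for the DDC and cMet library (left) and the DDC library (right). In the DDC and cMet library the share is higher among Cdkn1a, Cyp2e1 and Ccnd1 cells and lower among Cyp2f2 and Sox9 cells. In the DDC library it is lower among Plet1, Defb1 and EGFP cells.

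Read the other way, from state to division, the share of mitotic cells differed with the state genes a cell held, as the plot of mitotic shares shows. All cells were thinned to 5000 UMIs for these genes. Gated cells of the DDC and cMet library with a UMI of Plet1, a surface protein gene of epithelial progenitors, were mitotic in 6.97% (4.31 to 10.6) and those without in 10.5% (9.42 to 11.6), and Sox9 gave 5.71% (3.30 to 9.11) and 10.6% (9.52 to 11.7). Of the DDC library, cells with a UMI of Plet1 were mitotic in 7.45% (5.52 to 9.78) and those without in 17.4% (14.9 to 20.2), at median depths of 41561 and 40223 UMIs before thinning. Defb1, a beta-defensin gene, gave 6.86% (4.64 to 9.70) and 15.7% (13.5 to 18.0) at median depths of 34992 and 42787 UMIs, and the EGFP reporter 7.57% (4.62 to 11.6) and 14.3% (12.3 to 16.4). Sox9 gave 10.2% (7.52 to 13.4) and 14.4% (12.3 to 16.7), intervals that overlap. Plet1 was found at 5000 UMIs in 24.6% of mitotic, 52.9% of matched and 3.67% of immune and endothelial cells of that library.

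Cdkn1a stood the other way in the DDC and cMet library. There, 21.3% of gated cells with a UMI of Cdkn1a were mitotic (16.2 to 27.3), against 9.38% of those without (8.38 to 10.5), at median depths of 33817 and 33915 UMIs. Those shares were 13.7% (11.4 to 16.3) and 12.4% (10.0 to 15.1) in the DDC library. Cdkn1a was found at 5000 UMIs in 14.1% of mitotic, 7.04% of matched and 16.8% of immune and endothelial cells of the DDC and cMet library, so its share in hepatocytes there was not above that of the other cells, a limit to the split by Cdkn1a in that library. For the DDC library the shares were 56.0%, 56.5% and 23.2%. Ccnd1 also went with a higher mitotic share in the DDC and cMet library. It was 11.7% (10.2 to 13.3) with a UMI and 8.57% (7.25 to 10.05) without, at median depths of 35587 and 32615 UMIs. Ccnd1 gave 12.7% (10.3 to 15.5) and 13.4% (11.1 to 16.0) in the DDC library, intervals that overlap.

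Several zonation genes also went with division in the DDC and cMet library. Pericentral genes were at least 2-fold higher in 4 of 11 cases there, with a median of 0.60, and in 2 of 12 in the DDC library (0.18). Periportal genes were at least 2-fold lower in 3 of 12 cases in the DDC and cMet library, with a median of -0.60, and in 0 of 12 in the DDC library (0.00). Cyp1a2, a pericentral P450, was at 330 CPM in mitotic and 157 CPM in matched cells of the DDC and cMet library (log2 ratio 1.07) and at 209 and 154 CPM in the DDC library (0.44). Tbx3, a pericentral transcription factor, was at 20.6 and 5.19 CPM (1.99, 1.597 to 2.39) and at 4.99 and 2.84 CPM (0.81, 0.09 to 1.57). Cyp2c37 was at 24.5 and 9.17 CPM (1.42) and at 7.37 and 2.73 CPM (1.43). The periportal genes Hal, histidine ammonia lyase, and Etnppl were at 69.5 and 166 CPM (-1.25) and at 33.7 and 84.4 CPM (-1.32) in the DDC and cMet library, and gave -0.22 and -0.06 in the DDC library. Mitotic shares in the DDC and cMet library were 13.4% (11.7 to 15.2) among cells with a UMI of Cyp2e1 and 7.61% (6.44 to 8.91) without, and 7.91% (6.80 to 9.14) with a UMI of Cyp2f2 and 14.2% (12.3 to 16.3) without. For the DDC library Cyp2e1 gave 11.2% (8.57 to 14.4) and 14.1% (11.9 to 16.4), and Cyp2f2 15.5% (12.6 to 18.8) and 11.6% (9.55 to 13.9), all overlapping. The pericentral gene Glul, glutamine synthetase, gave 8.12% (5.81 to 10.97) and 10.5% (9.42 to 11.7) in the DDC and cMet library. In the DDC library it gave 14.98% (10.8 to 20.1) and 12.7% (10.9 to 14.7), and the intervals overlapped in each library. Glul was found at 5000 UMIs in 11.1% of mitotic, 14.7% of matched and 61.5% of immune and endothelial cells of the DDC and cMet library. Cyp2e1 and Cyp2f2 were found at 5000 UMIs in 14.0% and 16.8% of immune and endothelial cells of the DDC and cMet library, against 58.7% and 49.6% of mitotic cells.

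The median mitochondrial share also differed there, at 8.90% in mitotic and 10.98% in matched cells of the DDC and cMet library. Leaving mitochondrial and rule genes out of the totals gave a median log2 ratio over all genes of 0.06 in that library, against 0.10. The part of the mitochondrial share in these lists was otherwise not tested. Urea cycle and gluconeogenesis lists had medians of -0.50 and -0.62 in the DDC and cMet library and of 0.05 and -0.10 in the DDC library. Cps1, the rate-limiting enzyme of the urea cycle, was at 809 CPM in mitotic and 1338 CPM in matched cells of the DDC and cMet library and at 872 and 948 CPM in the DDC library. Pck1, the gluconeogenic enzyme, was at 990 and 1738 CPM and at 562 and 711 CPM.

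NRF2 and glutathione genes had the widest gap between libraries of the lists with at least 15 measured genes: 7 of 15 were at least 2-fold higher in mitotic cells of the DDC and cMet library (median 0.66), against 0 of 16 in the DDC library, where 1 was lower (median -0.16). Nqo1, a quinone reductase induced by NRF2, was at 40.5 CPM in 201 mitotic and 8.86 CPM in 84 matched cells of the DDC and cMet library (log2 ratio 2.19, 1.90 to 2.50) and at 29.6 CPM in 110 and 14.8 CPM in 72 cells of the DDC library (0.995, 0.69 to 1.30). Gstm3, a glutathione transferase of a family of close copies, was at 644 and 205 CPM (1.65, 1.59 to 1.72) and at 586 and 449 CPM (0.38, 0.33 to 0.44), and Gstm2 at 162 and 46.8 CPM (1.79) and at 98.6 and 63.8 CPM (0.63). Gclc, of glutathione synthesis, gave -0.03 and -0.52. Oncofetal genes went apart: Golm1 was at 28.9 and 10.4 CPM (1.47) and at 44.4 and 27.1 CPM (0.72), Scd2 at 44.5 and 18.0 CPM (1.31) and at 13.0 and 5.13 CPM (1.34), and Afp, alpha-fetoprotein, at 6.25 and 2.44 CPM (1.35, 0.75 to 1.99) in the DDC and cMet library and at 8.35 and 12.6 CPM (-0.59, -1.02 to -0.16) in the DDC library. H19 was at 34.4 CPM in 60 mitotic and 88.0 CPM in 41 matched cells of the DDC and cMet library, so more mitotic cells held it at a lower summed level, and 5 matched cells held 65.9% of the matched UMIs.

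Differences between the libraries in the ratio of mitotic to matched cells passed 2-fold upward in 150 of 9896 genes (1.52%) and downward in 149 (1.51%). Among genes with at least 100 UMIs in each library, the chemokine gene Cxcl9 was at 12.3 CPM in mitotic and 10.9 CPM in matched cells of the DDC and cMet library (log2 ratio 0.17) and at 36.6 and 141 CPM in the DDC library (-1.94). Mfsd2a, a lysolipid transporter, was at 7.39 CPM in 58 mitotic and 27.3 CPM in 130 matched cells of the DDC and cMet library (-1.88, -2.22 to -1.56) and at 9.11 CPM in 50 and 5.35 CPM in 33 cells of the DDC library (0.77, 0.24 to 1.31). Cox6b2, a cytochrome oxidase subunit gene known from testis, was at 4.57 and 4.66 CPM in 35 and 40 cells (-0.03, -0.57 to 0.51) and at 27.5 and 4.80 CPM in 104 and 27 cells (2.52, 2.05 to 3.02). S100a6, a calcium-binding protein gene, was lower in both, at 5.71 and 61.5 CPM (-3.43) and at 81.6 and 196 CPM (-1.27), but gave 0.10 in the DDC library among cells with at least 200 Alb UMIs per 10000. The mitotic genes Cenpf and Tpx2 also showed a gap, with few matched UMIs. Without the 5 richest cells of each group Cenpf gave 7.79 and 7.43, and Tpx2 7.30 and 7.15. A side left with 0 UMIs stands at the floor of 3 UMIs, so those values can be bounds. The part of the few matched UMIs in the gap was not tested. Set directly side by side, mitotic cells of the DDC and cMet library were at least 2-fold above those of the DDC library in 267 genes (2.7%) and at least 2-fold below in 584 (5.9%), around a median of -0.21, and these differences cannot be told apart from those between libraries.

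Markers of other cell types were measured in the same groups. Endothelial markers summed to 20.11 CPM in mitotic and 20.01 CPM in matched cells of the DDC and cMet library, and 0 of 5 measured passed 2-fold. In the DDC library they summed to 69.0 CPM in mitotic and 31.0 CPM in matched cells, 5 of 8 were at least 2-fold higher (median 1.09), and the median cell had 0.164 and 0 UMIs per 10000, the highest 13.8 and 11.6. Stellate and fibroblast markers summed to 17.4 and 23.6 CPM in the DDC and cMet library and to 65.0 and 44.2 CPM in the DDC library, where 2 of 5 were at least 2-fold higher; 5 mitotic cells held 89.0% of the Dcn UMIs of mitotic cells. Macrophage markers summed to 214 and 238 CPM and to 216 and 334 CPM, lymphoid markers to 5.03 and 6.34 and to 11.2 and 16.5 CPM, and neutrophil markers to 2.44 and 2.22 and to 3.69 and 0.655 CPM. Cholangiocyte markers summed to 10.6 and 18.0 and to 21.9 and 29.8 CPM, and erythroid markers to 28.5 and 38.0 and to 6.40 and 7.97 CPM. Slc4a1, Ms4a1, Ly6g and Krt19 were at 0 in all groups. Doublets were not removed, and the part of the endothelial and stellate markers in the results of the DDC library was not tested. Among cells without a UMI of the 4 gate genes, 99 genes were at least 2-fold higher in both libraries and 25 lower, fewer cells being left.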

How the data were processed

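Both libraries were droplet 3′ single-cell RNA-seq of perfused primary liver cells, per the labels' protocols. The deposited matrices hold UMI counts per gene and barcode, not normalized; per the file headers they were written by Cell Ranger 5.0.1, while Cell Ranger 6.0.1 and Seurat 4.0.1 stand in the submitters' processing notes, with mm10 as the build. Doublets were not removed and no caller was run. Counts were summed over mitotic and over matched cells with Python 3.11.15, numpy 2.4.6, scipy 1.17.1 and pandas 2.3.3, scaled to CPM, and compared as log2 ratios for genes with at least 50 UMIs over both groups. Values in brackets after a ratio are 95% conditional Clopper-Pearson intervals, which cover counting error only; a group at 0 UMIs was set to a floor of 3 UMIs. Library totals were 186997180 and 104523363 UMIs. With 1 library per condition no test was made. Genes were named by rule: the 15 highest and 15 lowest by the smaller ratio of both libraries, 8 at each end of the difference between libraries, and up to 4 per list, leaving out mitochondrial, ribosomal protein and unnamed genes; genes outside the rule are said to be so where given. Some genes under the rule are not reported here. The members and lists were chosen with earlier results of these data known. The alternatives tried were other gates, rules, matching, depths, minimum counts and weights.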

Additional observations from a re-analysis of the deposited data

Results flagged for a closer look

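Of 9896 genes measured in both libraries, 2 were at least 2-fold higher in mitotic cells of the DDC and cMet library and at least 2-fold lower in those of the DDC library (0.0202%), and 3 lay the other way round (0.0303%). They are given because the libraries' values lie on opposite sides; the difference was not tested. Cbr3, a carbonyl reductase gene, had 154 UMIs in mitotic and 56 in matched cells of the DDC and cMet library (log2 ratio 1.46) and 68 and 154 in the DDC library (-1.19), a difference of 2.64. Gpx2, a glutathione peroxidase gene, had 49 and 4 UMIs (3.61) and 4 and 62 UMIs (-3.96), a difference of 7.57, and it was found in 16 mitotic and 3 matched cells and in 3 mitotic and 12 matched cells. Ccl20, a chemokine gene, had 5 and 90 UMIs (-4.17) and 45 and 16 UMIs (1.48), a difference of -5.66. Its 90 matched UMIs came from 4 cells and its 45 mitotic UMIs from 3 cells. Gm38832 had 20 and 51 UMIs (-1.35) and 41 and 11 UMIs (1.89), a difference of -3.24. Tent5c, a poly(A) polymerase gene, had 50 and 121 UMIs (-1.28) and 48 and 19 UMIs (1.33), a difference of -2.61.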

How the results depend on the processing

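No paired analysis was possible because each condition is 1 library, so the groups share fewer than 2 replicate numbers. The mitotic share of 10.2% in the DDC and cMet library and 13.1% in the DDC library came to 6.45% and 11.1% with at least 10 UMIs and 4 per 10000, and to 5.07% and 10.7% with at least 20 UMIs, a limit chosen after seeing the data; with 200 Alb UMIs per 10000 it was 15.8% in the DDC library. Counts of genes past 2-fold were 355 higher and 187 lower in the DDC and cMet library, 349 and 221 in the DDC library, 206 and 53 in both, and 150 and 149 for the difference. Without any immune or endothelial UMI, 110 were lower in the DDC and cMet library, 222 higher in the DDC library, 99 higher and 25 lower in both, and 249 higher by the difference. With 200 Alb UMIs 128 were lower in the DDC library. With 3 matched cells each, 294, 365 and 88 were lower in the DDC and cMet library, the DDC library and both; without depth matching 490, 370 and 125 were, and the difference gave 244 and 306. Thinned to 5000 UMIs, the counts were 171 and 93, 135 and 65, 58 and 13, and 91 and 60. A minimum of 20 UMIs gave 335 lower in the DDC and cMet library, 541 and 384 in the DDC library, 96 lower in both, and 280 and 313 for the difference; a minimum of 200 UMIs gave 174 and 93, 142 and 88, 94 and 23, and 41 and 38. Among cells with an EGFP UMI 210 were higher in the DDC library, and among cells at or under the median Spp1 level, chosen after seeing the data, the difference gave 278 higher. Directions turned for S100a6 in the DDC library with 200 Alb UMIs (0.10), for Mup21 without the deepest 5% of cells (0.10), for the origin list in the DDC and cMet library when thinned (-0.22, over 3 genes) and for the mid-lobular list among EGFP cells (0.15); the cause was not tested. Spp1 gave 0.0746 in the DDC library at or under its median, a setting that chose cells by Spp1 itself and so does not test its ratio. Without depth matching, 191 of the 206 higher and 45 of the 53 lower genes kept their call, and with centring on the median gene 186 and 53 did. Centring moved the higher share of calls in the DDC and cMet library to 57.2%, against 65.5%. In the DDC library the periportal (-0.13 to 0.13), pericentral (-0.46 to 0.33) and NRF2 (-0.33 to 0.07) list medians crossed 0 between settings. Genes under 50 UMIs and differences between mice are beyond what 1 library each can show.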

Other observations

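Several abundant genes outside every list also differed at least 2-fold in both libraries: 17 with at least 50 CPM were higher in mitotic cells and 5 lower. They were chosen after the values were seen. Selenoh, a nuclear selenoprotein gene, was at 192 CPM in mitotic and 25.5 CPM in matched cells of the DDC and cMet library and at 201 and 27.3 CPM in the DDC library (log2 ratios 2.91 and 2.88). The nucleosome-binding protein gene Hmgn2 was at 94.2 and 23.1 CPM and at 94.5 and 19.1 CPM, and Nucks1, a chromatin protein gene, at 250 and 117 CPM and at 341 and 133 CPM. Ccdc34, a coiled-coil protein gene, was at 90.9 and 14.4 CPM and at 125 and 27.0 CPM. Genes of RNA handling were among them with smaller ratios: Hnrnpa1 gave 1.06 and 1.07, Tardbp 1.11 and 1.14, and the LSM ring genes Lsm4 1.09 and 1.07 and Lsm5 1.07 and 1.41.

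Secreted and metabolic genes were among them too. Ccl9, a chemokine gene, was at 553 CPM in mitotic and 179 CPM in matched cells of the DDC and cMet library and at 614 and 192 CPM in the DDC library (log2 ratios 1.63 and 1.68), and was found in 340 mitotic and 328 matched cells and in 190 and 187. Fabp2, a fatty acid binding protein gene known from intestine, was at 224 and 83.5 CPM (1.42) and at 89.4 and 25.0 CPM (1.84), and the calmodulin gene Calm3 at 145 and 51.8 CPM and at 180 and 75.7 CPM. On the lower side, Car3, carbonic anhydrase 3, was at 516 and 1267 CPM (-1.30) and at 83.5 and 252 CPM (-1.59). Aox3, an aldehyde oxidase gene, was at 187 and 505 CPM (-1.43) and at 78.3 and 161 CPM (-1.04), and Nat8f1, an acetyltransferase gene, at 80.9 and 212 CPM (-1.39) and at 69.4 and 154 CPM (-1.15).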
